A study of Mus musculus with 35 samples.

Results

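The vesicle coat, tether and SNARE genes followed here were 91 genes, measured by 116 cDNA clones, out of 7389 named genes on 15254 clones of the array. They were the genes whose symbol began with the names of the COPI coat (Cop), the COPII coat and the translocon (Sec), the adaptor and clathrin chains (Ap1 to Ap4, Clt), the vacuolar sorting proteins (Vps), the TRAPP tether (Trappc), the syntaxins and VAMPs (Stx, Vamp) and the p24 cargo receptors (Tmed). By known function 23 of them act in export from the endoplasmic reticulum (ER), 25 at the Golgi and 39 at endosomes, lysosomes and the cell surface, and 4 have other roles. Those 4 were Vps13a, Vps13b and Vps13d, which code for lipid transfer proteins, and Vps72, which codes for a chromatin protein. A symbol in the array's own annotation was replaced by a newer one for 2 members (Copg is now Copg1 and Vps24 is now Chmp3), and the array's symbols are kept below.

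Mouse ovarian surface epithelial (MOSE) cells form the single layer that covers the ovary. The cells came from 8-week-old female C57BL/6 mice and were kept in culture without any added agent until they transformed on their own, which the study places at about passage 20. RNA of 9 passages (early ones p2, p5, p7 and p10, then p14 and p18, and after the transformation p23, p25 and p28) was hybridised on 35 two-colour arrays against RNA of whole newborn male C57BL/6 mice. Each passage had 2 arrays with MOSE RNA in Cy5 (direct) and 2 with it in Cy3 (reverse), except p7 with 3 arrays. A level below is the log2 of MOSE over newborn mouse signal, so 0 stands for equal signal and 1 for a 2-fold excess in MOSE cells, and a difference is a level minus that at p2. The study counts the arrays of a passage as replicates of 1 sample, and no source names separate cultures. A p-value against p2 therefore measures the spread between arrays of a sample, not between cultures. In such cultures a change in the mix of cells and a change within each cell cannot be told apart.

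Proteins made for secretion enter the ER through the Sec61 translocon, leave it in COPII-coated vesicles with p24 proteins as cargo receptors, and return from the Golgi in COPI-coated vesicles. TRAPP, HOPS and CORVET are tethers that catch a vesicle at its target, and SNAREs (syntaxins and VAMPs) then fuse both membranes. Clathrin with its adaptors AP-1, AP-2 and AP-3 carries cargo from the trans-Golgi network, the cell surface and endosomes, ESCRT proteins sort receptors for degradation in lysosomes, and retromer returns receptors from endosomes to the Golgi or the surface.

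Promoter windows are shown for 3 members past a threshold in the tests below (Vps16, Vps26a and Trappc3), and for Vps33a and Sec62, which hold the same motif as Vps16. They run from 250 bases before to 50 after the annotated start (RefSeq, build GRCm38.p6), and 74 of the 91 members matched an entry. Vps16 (chr2:130424070-130424369, plus strand), Vps26a (chr10:62486549-62486848, minus strand), Vps33a (chr5:123572966-123573265, minus strand) and Sec62 (chr3:30792626-30792925, plus strand) each held the palindrome TCACGTGA, in capitals, an E-box that basic helix-loop-helix factors are known to bind. Trappc3 (chr4:126262155-126262454, plus strand) held none of the motifs searched. The Vps26a window shown is that of a downstream start. The window of its upstream start (chr10:62486756-62487055, minus strand) also held TCACGTGA and is not shown.
Vps16: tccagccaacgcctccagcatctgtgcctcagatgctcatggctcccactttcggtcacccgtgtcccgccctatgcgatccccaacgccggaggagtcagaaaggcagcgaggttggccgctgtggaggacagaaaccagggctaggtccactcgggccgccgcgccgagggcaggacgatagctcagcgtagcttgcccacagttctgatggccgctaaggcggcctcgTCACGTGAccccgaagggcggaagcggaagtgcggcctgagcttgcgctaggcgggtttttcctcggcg
Vps33a: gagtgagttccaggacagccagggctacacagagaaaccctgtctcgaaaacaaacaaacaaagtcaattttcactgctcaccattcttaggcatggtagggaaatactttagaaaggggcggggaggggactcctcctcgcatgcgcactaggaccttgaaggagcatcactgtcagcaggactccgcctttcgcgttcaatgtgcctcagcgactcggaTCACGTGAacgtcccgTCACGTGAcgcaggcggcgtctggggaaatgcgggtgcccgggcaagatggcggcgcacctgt
Vps26a: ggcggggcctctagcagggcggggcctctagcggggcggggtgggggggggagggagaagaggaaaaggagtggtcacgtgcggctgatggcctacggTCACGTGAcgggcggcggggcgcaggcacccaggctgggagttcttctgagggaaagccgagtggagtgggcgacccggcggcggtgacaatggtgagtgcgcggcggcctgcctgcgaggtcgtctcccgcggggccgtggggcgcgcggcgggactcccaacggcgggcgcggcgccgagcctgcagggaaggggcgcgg
Sec62: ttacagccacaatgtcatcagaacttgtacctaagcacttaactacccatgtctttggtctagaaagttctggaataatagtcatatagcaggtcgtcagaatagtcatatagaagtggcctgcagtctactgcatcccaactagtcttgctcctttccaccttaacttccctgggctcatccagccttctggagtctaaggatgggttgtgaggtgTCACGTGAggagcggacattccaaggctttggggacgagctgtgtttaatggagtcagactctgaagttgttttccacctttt
Trappc3: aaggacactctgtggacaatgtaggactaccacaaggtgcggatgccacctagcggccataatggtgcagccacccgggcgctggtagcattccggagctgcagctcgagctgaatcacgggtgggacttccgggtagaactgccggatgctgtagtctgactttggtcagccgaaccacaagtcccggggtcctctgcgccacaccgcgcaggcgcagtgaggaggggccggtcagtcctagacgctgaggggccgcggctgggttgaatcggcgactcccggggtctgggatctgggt
TCACGTGA, searched on both strands, was in a window of 5 of the 74 members (6.76%), Sec23ip being the other, and of 304 of 27025 annotated genes (1.12%). The cyclic AMP response element TGACGTCA was in a window of 3 members (Ap2b1, Cltb and Cope), 4.05% of the 74, and of 2.03% of all genes. The ER stress element (CCAAT and CCACG at their fixed spacing) was in none of the members' windows and in those of 0.137% of all genes. The members with TCACGTGA did not share a direction: between p28 and p2 Vps16 differed by 0.64, Vps33a by -0.08, Vps26a by -0.90, Sec62 by -0.72 and Sec23ip by 0.49.

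Across the series the median MOSE signal ran from 872 to 7420 units per array, and 98.8% to 99.6% of spots were above background. Of the 4060 member spots 105 (2.59%) were dim or flagged by the scanner software, against 2.71% over all clones. Of the markers of the labelled cell type, Wt1 was at a level between 1.93 and 5.76 and Krt19 between 1.73 and 3.42. Cdh1 was below 0 at 8 of 9 passages, and Nr2f1 (-0.65 to -0.05) and Nr2f2 (-2.34 to -0.63) were below 0 at all 9. Krt8 lay between -0.565 and 0.981. Of 14 ovarian surface and mesothelial markers 10 to 12 were above 0 at each passage. The median level was below 0 at every passage for 6 fibroblast markers (-2.13 to -0.72), 3 macrophage markers (-1.12 to -0.67), 4 endothelial markers (-1.21 to -0.49) and 6 erythroid markers (-3.28 to -1.38), and for 3 granulosa cell markers it went from 1.12 at p2 to -0.01 at p28. Above 0 at each passage were 1 endothelial marker (Esam, 0.29 to 1.68), 1 or 2 fibroblast markers and no macrophage or erythroid marker. Of the granulosa markers, Inha went from 1.12 at p2 to -0.06 at p28 and Foxl2 from 0.11 to -0.01. Nr5a1 stayed above 0 throughout (0.92 to 2.54), at 2.13 at p2 and 0.99 at p28. Hbb-b1, a globin of red blood cells, was at -5.99 at p2, -4.35 at p23, -6.43 at p25 and -4.95 at p28. Over all named genes 61.9% were nearer to 0 at p23 than at p2, and the spread of the unscaled ratios (the median absolute log2 ratio) was 0.206 at p2 and 0.466 at p23. The part of these shifts in the results below was not tested.

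Most members sat close to the newborn reference. At all 9 passages 18 members (19.8%) were above 0 and 13 (14.3%) below, and the other 60 changed side, against 13.4%, 17.7% and 68.9% of all named genes. Highest by the median of 9 passage levels were Vamp8, a SNARE of late endosomes, at 0.65 and Sec23ip, which binds the COPII subunit Sec23, at 0.61. Lowest were Copg2, a COPI subunit encoded by an imprinted gene, at -1.48, Sec61a2 at -1.06 and the p24 protein Tmed9 at -0.81. Ap1m2, the AP-1 subunit of polarised epithelia, was at -0.61. The map of levels shows these as rows of 1 colour.

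**Figure D1:**
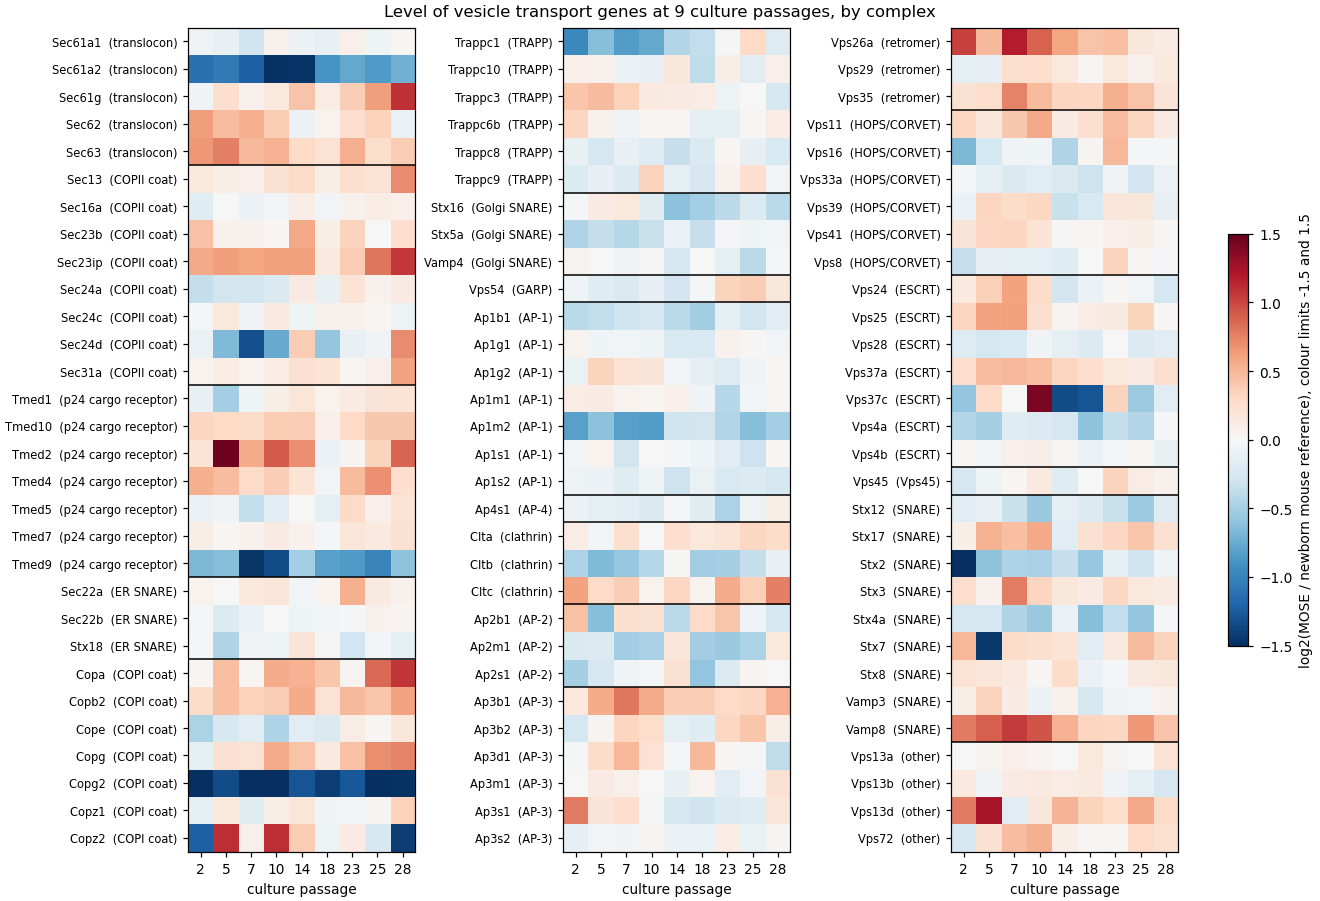
Level of the 91 genes except 1 that is not reported here (rows, by complex) at 9 culture passages (columns), as mean log2(MOSE / newborn mouse reference) over the arrays of a passage, with colour limits at -1.5 and 1.5. Copg2 and Sec61a2 stay blue throughout, Vps26a goes from 1.02 at p2 to 0.12 at p28 and Trappc1 moves from -0.97 to -0.20, while the single dark cells of Stx2 at p2 and Stx7 at p5 rest on 1 spot each. All 4 Stx7 spots of p5 were dim or flagged.

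The members' levels spanned a median of 0.59 log2 units between their lowest and highest passage, against 0.61 over all named genes, and the median SD between arrays of a passage was 0.24 for member clones and for all clones alike. The narrowest span was that of Vps4b, an ATPase of the ESCRT pathway, at 0.20. Spans over 2 were found for 4 members (4.40%, against 4.64% of all named genes). They were Vps37c, Copz2, Stx2 and Sec24d, and the first 3 rested on spots near background. Stx2, a syntaxin of the cell surface, read -0.63, -0.62, -0.54 and -7.99 on the 4 arrays of p2, so its difference of 2.38 at p28 dropped to 0.53 when dim and flagged spots were left out. Stx7, a late endosome syntaxin, read 0.58, -7.76, 0.43 and 0.96 at p5, where all 4 spots were dim or flagged.

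Each later passage was compared with p2 in a limma fit over the 15254 clones, with a call at an adjusted p under 0.01. No member passed at p5, p7, p10, p14 or p18, where 0.315%, 0.354%, 0.262%, 1.34% and 0.223% of all clones were called. At an unadjusted p under 0.05 these comparisons held 15.5%, 21.6%, 20.7%, 16.4% and 17.2% of the 116 member clones, against 18.1%, 23.4%, 18.6%, 18.5% and 14.5% of all clones. At p23 1 member was called (1.34% of all clones), at p25 another (1.02%) and at p28 a pair (2.98%), with 15.5%, 20.7% and 28.4% of member clones at an unadjusted p under 0.05, against 22.3%, 20.4% and 23.5% of all clones. A slope of level on passage number over the 9 passage means, with a call at an adjusted p under 0.05, passed for 2 members (2.77% of all clones). The test of p23, p25 and p28 against the 6 earlier passages passed for no member and for 0.0% of clones, with 16.4% of member clones and 15.0% of all clones (2293) at an unadjusted p under 0.05. Of 116 clones, 1 at p23 and at p25 and 2 at p28 and in the slope are shares of 0.862% and 1.72%, near or below the share over all clones. The median difference from p2 over the 91 genes lay between -0.06 (p18, 35 positive) and 0.13 (p28, 54 positive), against 0.02 and 0.04 over all named genes at the same passages. The array names in the study's supplement form 5 series, of which the labels say nothing, and values within a series or with it as a block are given beside the calls they bear on. For p18 and p25 the values within a series rest on 3 of their 4 arrays. With the series as a block, the series of p2 and of p23 were linked only through 1 direct array of p18 and 1 reverse array of p25. Both belong to the series of p10, and the fit had no dye term. The block values at p23 and p25 therefore rest on these arrays of opposite dye orientation.

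The pair of TRAPP subunits called for their slope moved in opposite directions. Both belong to the core of the TRAPP complexes, which activate Rab GTPases at the Golgi. Trappc1 was at -1.06, -0.78, -1.18 and -0.88 on the 4 arrays of p2. At p25 it read 0.48, -0.27, 0.66 and 0.33 and at p28 -0.18, -0.23, -0.26 and -0.12, so no array of either passage overlapped those of p2. Its level was 1.27 ± 0.21 (SE) above p2 at p25 (limma, adjusted p = 0.012) and 0.78 ± 0.13 above p2 at p28 (adjusted p = 0.0072). Against p7 of its own array series the p25 level was 1.21 higher (limma, adjusted p = 0.14), while a fit with the series as a block put it 0.69 above p2 (0.52). The slope was 0.040 ± 0.007 log2 units per passage (limma, adjusted p = 0.027). Trappc3 read 0.24, 0.29, 0.75 and 0.39 at p2 and -0.50, -0.41, 0.19 and -0.24 at p28, again without overlap. Its slope was -0.024 ± 0.004 per passage (limma, adjusted p = 0.028), and its difference of -0.66 ± 0.18 at p28 did not pass (adjusted p = 0.059). Both slopes were lost without scaling between arrays, at adjusted p = 0.098 for Trappc1 and 0.096 for Trappc3, and that of Trappc3 also with global loess (0.0996). Each was lost when p2, p7 or p23 was left out. Without p2, p7 and p23 in turn the adjusted p was 0.076, 0.063 and 0.070 for Trappc1 and 0.072, 0.066 and 0.069 for Trappc3. Without p10 the Trappc1 slope was also lost (0.051), as was that of Trappc3 without p5 (0.061) or p28 (0.081). The other 4 TRAPP members, Trappc6b, Trappc8, Trappc9 and Trappc10, had slopes between -0.006 and 0.008.

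Vps16, the subunit that joins Vps33a to the HOPS and CORVET tethers of endosomes and lysosomes, was the member called at p23. It read -0.59, -0.66, -0.64 and -0.81 at p2 and 0.47, 0.38, 0.68 and 0.45 at p23, with no overlap. The level was higher by 1.17 ± 0.13 (limma, adjusted p = 0.0027). It was also 0.61 ± 0.10 above p2 at p10 (adjusted p = 0.022), 0.72 ± 0.17 at p18 (0.078), 0.66 ± 0.12 at p25 (0.019) and 0.64 ± 0.12 at p28 (0.010, just above the threshold), but only 0.23 ± 0.20 at p14, where 3 arrays lay between -0.74 and -0.54 and 1 at 0.16. The arrays of p2 and p23 belong to different series. Against p7, whose arrays share the series of p23, the difference was 0.55 (adjusted p = 0.13), and with the series as a block 0.87 (adjusted p = 0.27). Over the p18 and p2 arrays of 1 series it was 0.60 (adjusted p = 0.11). The call at p23 was lost when either reverse array of p2 or of p23 was left out (adjusted p up to 0.015). It was also lost without scaling between arrays, with scaling within each passage, on the deposited ratios and with the replicate block. With scaling within each passage and on the deposited ratios, 0 of all clones were called at p23. Its partner Vps33a, measured by 3 clones, differed by -0.04 at p23. Of the other tether subunits, Vps8 was 0.68 ± 0.18 above p2 at p23 (adjusted p = 0.055) and Vps39, Vps41 and Vps11 differed by 0.27, -0.12 and 0.15.

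Vps26a, the arrestin-fold subunit of retromer, fell at p28. It read 0.84, 0.79, 1.10 and 1.35 at p2, 0.09, 0.17, 0.14 and 0.29 at p25 and 0.02, -0.05, 0.25 and 0.26 at p28. The 8 arrays of p25 and p28 all lay below the 4 of p2, and so did those of p5 at 0.43, 0.68, 0.48 and 0.37, while those of p7, at 1.36, 1.33 and 1.01, lay at the level of p2 or just above. The difference was -0.90 ± 0.16 at p28 (limma, adjusted p = 0.0093) and -0.85 ± 0.15 at p25 (0.017), and the slope -0.032 ± 0.008 per passage (0.056). Against p7 of its own array series the p25 level differed by -1.04 (limma, adjusted p = 0.065), and with the series as a block it differed from p2 by -0.49 (0.58). The other retromer subunits did not follow it, with Vps29 at 0.29 and Vps35 at -0.04 between p28 and p2, neither past the threshold. Neither Trappc1 nor Vps26a was called at p28 without scaling between arrays (limma, adjusted p = 0.034 and 0.020), with scaling within each passage (0.037 and 0.036) or on the deposited ratios (0.035 and 0.028). Neither call at p28 held once any 1 of the 8 arrays was left out, where the adjusted p was 0.014 to 0.029 for Vps26a and 0.012 to 0.022 for Trappc1. The arrays of p28 form a series of their own, so the passage and the series cannot be told apart.

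Ap3s1, the small subunit of the endosomal adaptor AP-3, was lower than at p2 at all 8 later passages and passed at 1 of them. It read 0.77, 0.59, 0.84 and 0.90 at p2, above all 31 later values, and -0.15, -0.42, 0.01 and -0.17 at p25. The difference was -0.95 ± 0.14 at p25 (limma, adjusted p = 0.0078) and -1.07 ± 0.13 at p18 (adjusted p = 0.010, not past the threshold). Over the p18 and p2 arrays of 1 series it was -1.13 (adjusted p = 0.012). With the series as a block Ap3s1 was called at p18 but not at p25. Against p7 of its own series the p25 level differed by -0.39 (adjusted p = 0.37), and the p25 call was lost on leaving out any 1 array (adjusted p 0.016 to 0.032) and with global loess (-0.84, adjusted p = 0.021). The other AP-3 subunits differed from p2 at p25 by 0.15 (Ap3b1), 0.68 (Ap3b2, the form of nerve cells), 0.01 (Ap3d1), -0.05 (Ap3m1) and 0.03 (Ap3s2).

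**Figure D2:**
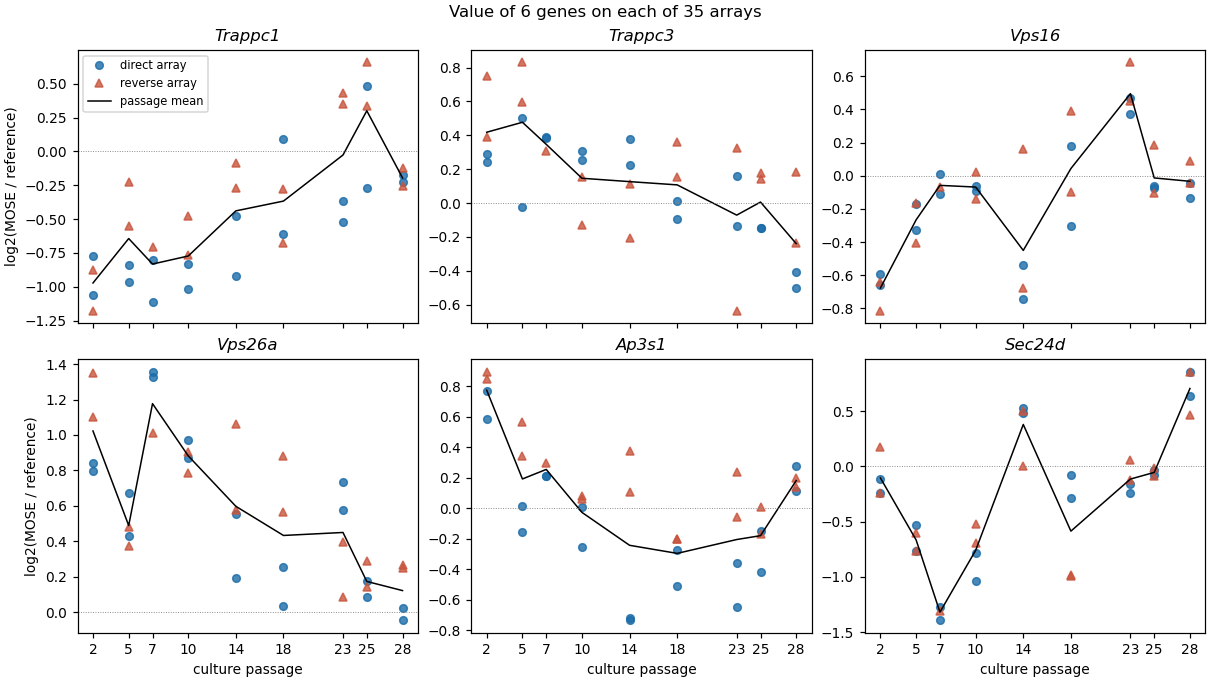
Log2(MOSE / reference) of 6 genes on each of 35 arrays by culture passage, with circles for direct arrays, triangles for reverse arrays and a line through the passage means. Vps16 lies between -0.81 and -0.59 at p2 and between 0.38 and 0.68 at p23, and Sec24d lies between -1.39 and -1.27 at p7 and between 0.47 and 0.86 at p28.

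All 5 members called against p2 or for their slope were nearer to the reference level at the passage concerned (p28 for Trappc3) than at p2. The same held for 52 of the 91 members at p28 (57.1%) and for 60.8% of all named genes. Among members named below, Sec24d went the other way, from -0.10 at p2 to 0.70 at p28.

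In the ER export group no member passed in any comparison. The median difference from p2 at p28 was 0.14 over its 23 genes, 17 of them positive, against 0.04 and 55.1% positive over all named genes. The largest movement was that of Sec24d, a COPII subunit that selects cargo. It read -0.24, -0.11, 0.18 and -0.24 at p2, -1.27, -1.39 and -1.31 at p7, and 0.86, 0.64, 0.47 and 0.85 at p28, so p7 lay wholly below and p28 wholly above p2. Its level differed from p2 by -1.21 ± 0.14 at p7 (limma, adjusted p = 0.018) and by 0.81 ± 0.15 at p28 (0.011), both short of the threshold of 0.01. With dim and flagged spots left out both passed (limma, adjusted p = 0.0025 and 0.0068), though no spot of Sec24d itself was among them. Neither passed with global loess, with clones averaged or with the replicate block. Within 1 array series the level of p14 was 1.70 above that of p7 (limma, adjusted p = 0.0076). The other cargo-binding subunits moved less, Sec24a by 0.48 and Sec24c by -0.06 at p28. Of the rest of the COPII coat at p28, Sec13 (0.56), Sec31a (0.55), Sec23ip (0.49) and Sec16a (0.26) were positive and Sec23b (-0.19) negative, none of them past the threshold.

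Among the p24 cargo receptors Tmed2 stood out at p5. It read -0.04, 0.38, 0.31 and 0.16 at p2 and 2.00, 1.11, 1.48 and 1.26 at p5, with no overlap. It lay between -0.22 and -0.02 at p18 and was again above every array of p2 at p28, at 0.92, 0.84, 0.60 and 1.12, a difference of 0.67 ± 0.15 (limma, adjusted p = 0.027). The difference at p5 was 1.26 ± 0.20 (limma, adjusted p = 0.021), and the p5 arrays form a series of their own. It passed with normexp background (adjusted p = 0.0072), on the deposited ratios (0.0096) and with all arrays in 1 fit (3.5e-05). With dim and flagged spots left out it also passed (0.0076), though no spot of Tmed2 itself was among them. At p5 Tmed2 was not called with global loess, without scaling, with scaling within each passage or with clones averaged. Nor was Tmed2 called there with dye as a term, with the replicate block or on leaving out any array. Its partner Tmed10 differed by -0.02 at p5, and Tmed9 by -0.78 at p7 and -0.67 at p10. The slopes of Tmed1 and Tmed5 were 0.017 and 0.016 per passage, with that of Tmed1 at an adjusted p of 0.17. Of the translocon, Sec61g, its small gamma subunit, had the highest slope t value of the group. It read -0.04, -0.26, 0.04 and 0.03 at p2 and 0.56, 0.75, 1.37 and 1.72 at p28, with both reverse arrays above both direct ones. The difference was 1.16 ± 0.25 (limma, adjusted p = 0.020) and the slope 0.031 ± 0.008 (0.064). Sec62 and Sec63, which help proteins enter the channel after translation, differed by -0.72 and -0.27 at p28, and Sec61a1, the main channel protein, by 0.06. The ER SNAREs Sec22a, Sec22b and Stx18 differed by 0.01, 0.07 and -0.13.

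At the Golgi, 16 of the 25 genes were positive at p28 with a median difference of 0.13. Of the COPI coat 6 of 7 members were positive at p28 (median 0.48) and all 7 at p23 (median 0.34), though none passed. At p23 Copa differed by only 0.01, and the 1.34 of Copz2 rested on a dim or flagged p2 spot at -4.97. Copa, the alpha subunit, read -0.07, -0.33, 0.30 and 0.20 at p2 and 0.18, 0.65, 1.60 and 1.87 at p28, where both reverse arrays exceeded both direct ones and 1 direct array lay among those of p2. Its difference was 1.05 ± 0.35 (limma, adjusted p = 0.10). The 2 clones of Copg differed by 0.68 ± 0.20 (0.069) and 1.10 ± 0.29 (0.049), and the gene means of Cope, Copz1, Copb2 and Copg2 by 0.65, 0.48, 0.32 and 0.13. Copz2 was -0.21 at p28, from spots that were near background or flagged on many arrays. The Copg2 mean includes a clone that was dim or flagged on 12 arrays and read -1.68, -8.03, 3.26 and -0.23 at p28. The positive sign of Copg2 at p28 rests on that clone. Its other clone read -1.245, -1.131, -1.357 and -1.295 at p2 and -1.311, -1.208, -1.455 and -1.177 at p28. Of the Golgi SNAREs, Stx5a, which acts in ER to Golgi transport, had a slope of 0.016 ± 0.005 (limma, adjusted p = 0.087) and Stx16, of the trans-Golgi network, -0.019 ± 0.007 (0.22). Vps54, of the GARP tether, was 0.39 above p2 at p23 and 0.43 at p25. The 7 AP-1 subunits lay between -0.19 and 0.30 at p28, with Ap1m1 at -0.54 at p23.

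In the endosome group 19 of 39 genes were positive at p28 and the median difference was -0.01, and at p7 the median was 0.15 with 27 of 39 positive, against 0.01 and 52.1% over all named genes. The clathrin heavy chain Cltc and light chains Clta and Cltb differed from p2 at p28 by 0.15, 0.16 and 0.34. The AP-2 subunits Ap2b1, Ap2m1 and Ap2s1 differed by -0.70, 0.37 and 0.50, none past the threshold. In the ESCRT group, whose median slope was -0.010, Vps24 and Vps25 had slopes of -0.022 and -0.015 per passage and differed at p28 by -0.42 and -0.30. Among endosomal and surface SNAREs, Vamp8 had a slope of -0.022 ± 0.007 (limma, adjusted p = 0.13), and Vamp3, Stx4a, Stx8 and Stx12 differed from p2 at p28 by -0.02, 0.25, -0.05 and -0.03. Of the genes with other roles, Vps13d differed by -0.94 at p7 and Vps72 by 0.78 at p10, neither past the threshold. Vps13d passed at p7 with normexp background and on the deposited ratios. With dim and flagged spots left out it also passed, though no spot of Vps13d itself was among them. None of the other alternatives called it at p7.

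**Figure D3:**
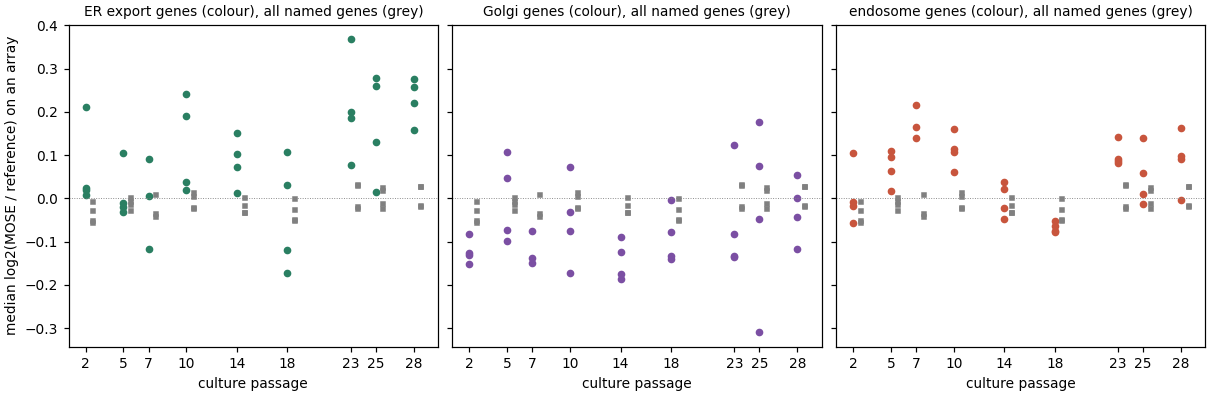
Median log2(MOSE / reference) over the genes of the ER export, Golgi and endosome groups on each array (coloured points) by culture passage, beside the median over all named genes on the same arrays (grey squares, set slightly to the right). ER export medians were 0.16 to 0.28 at p28 and 0.01 to 0.21 at p2, and the 3 arrays of p7 held the endosome median at 0.14 to 0.22.

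Some members were measured by more than 1 clone, which gives a check on single values. Over 29 pairs of clones from 21 genes the correlation of the 9 passage means had a median of 0.35, with 12 pairs above 0.5 and 6 below 0. These points share the same arrays and reference, and small differences limit the correlation. Cltc clones went together (0.89), as did those of Sec63 (0.88) and Ap2m1 (0.84), while those of Tmed7 (-0.50) and Sec22b (-0.39) did not. All 5 called members rest on 1 clone each. Long cDNA clones can also bind transcripts of close relatives, so Copg and Copg2, Sec61a1 and Sec61a2, and Ap1m1 and Ap1m2 may not be fully told apart.

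**Figure D4:**
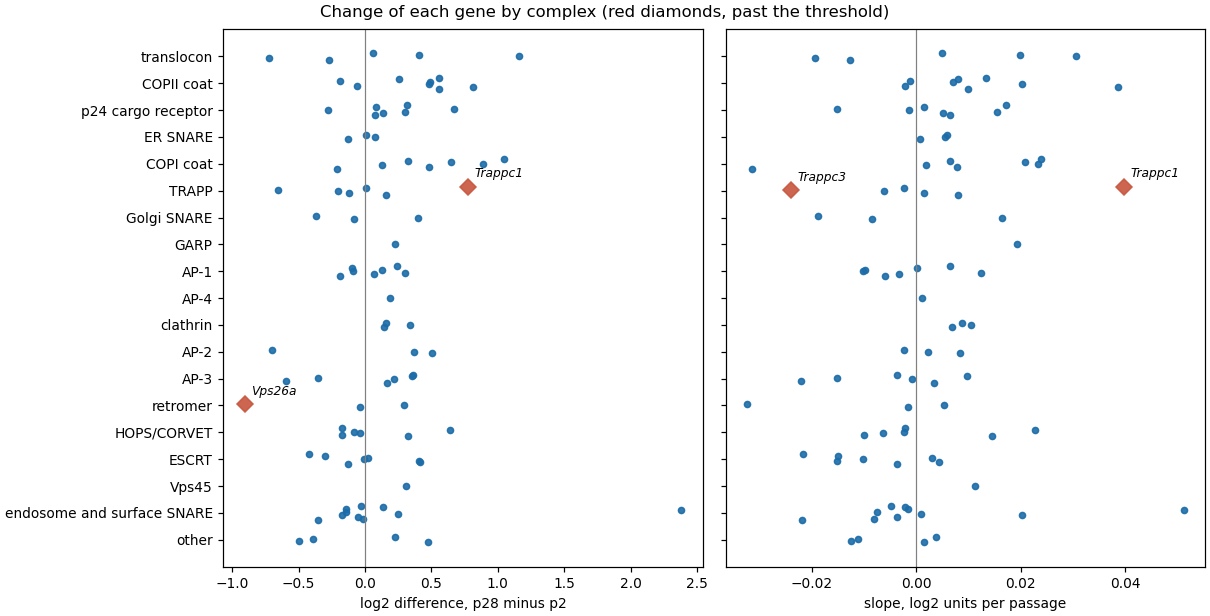
Difference from p2 at p28 (left, log2) and slope on passage number (right, log2 units per passage) of each of the 91 genes, as 1 point per gene in the row of its complex, with red diamonds for the genes past the threshold. COPI and COPII members lie mostly to the right of 0 at p28, Trappc1 and Trappc3 fall on opposite sides in the slope, and the far point in the SNARE row is Stx2, whose p2 mean rests on 1 spot at -7.99.

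Beyond the 91 members, 88 other genes of vesicle transport were measured by 124 clones. In the slope 5 of them passed upward and 1 downward, where 2.77% of all clones were called. Igf2r, the receptor that carries lysosomal enzymes, rose by 0.061 ± 0.006 per passage (limma, adjusted p = 0.0086), Hip1, which binds clathrin, by 0.036 ± 0.006 (0.021), Bnip1, an ER SNARE, by 0.035 ± 0.006 (0.028), Lman1, a cargo receptor of ER export, by 0.027 ± 0.006 (0.046) and Gga3, a clathrin adaptor, by 0.019 ± 0.004 (0.045). Snx3, a partner of retromer, fell by 0.031 ± 0.007 (0.042). Bnip1 was also called at p25 (1.09) and p28 (0.89). Of the COPI subunit Arcn1, the COPII GTPase Sar1a and the SNARE recycling ATPase Nsf, no clone passed in any comparison, with differences at p28 between 0.09 and 0.47.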

How the data were processed

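Two-colour cDNA arrays of the NIA mouse set were scanned with GenePix software. Per the file headers the deposited intensity values are the mean foreground and median background of each spot in both channels. The authors also deposited a table of normalized log2 ratios, which held 15023 rows without clone names. Its rows were matched here to clones by their values, 14758 of them at a Spearman correlation over 0.5 (113 of 116 member clones, median 0.975), and used as an alternative only. Per the study's methods those ratios had the same background setting, print-tip loess and scaling between slides.

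Following the study's methods, background was subtracted with a floor of 0.5, loess was run per print tip (32 blocks, empty spots given no weight), and the arrays were brought to a common median absolute value with limma 3.58.1 in R 4.3.3. The direct arrays were read as MOSE in Cy5 per the labels, and reverse ratios were turned. Each passage was fitted against p2 over the arrays of both passages (for p7, as a contrast of dye orientation means), with Benjamini-Hochberg adjustment over 15254 clones and a threshold of 0.01. The slope and the test of late against early passages ran on 9 passage means at 0.05. A gene's value is the mean of its clones. The fits were tested on simulated data.

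The members and lists were chosen with earlier results of these data known. Named genes were the members past a threshold, in each group the 3 with the highest and the 3 with the lowest slope t, and others by their role in a complex. Of the other vesicle genes, those past a threshold and Arcn1, Sar1a and Nsf were named. Dim and saturated spots stayed in unless stated. The counts include 1 member that is not reported here by name. The number of arrays limits the precision. The alternatives were normexp background with an offset of 50, global loess, no scaling, scaling within each passage, dim and flagged spots left out (at least 2 spots a group), the deposited log2 ratios, clones averaged, all arrays in 1 fit, dye as a term, replicate and array series blocks, and leaving out each array or passage.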

Additional observations from a re-analysis of the deposited data

Results flagged for a closer look

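The gap of 1 array to the other 3 of its passage was tested for 13 genes and 3 group medians, 128 tests in all, and 10 arrays stood apart. Chance gives about 1 in 20. The genes included Stx2, Stx7 and Copz2, named above for dim or flagged spots, so the count cannot be compared with that share. In 4 cases the spot was dim or flagged by the scanner software. Stx2 at p2 was -7.993 on array r2 against -0.63 to -0.54 on the others, Stx7 at p5 was -7.761 on d2 against 0.43 to 0.96, Copz2 at p2 was -4.971 on r2 against -0.30 to 0.58, and Copz2 at p28 was -3.943 on d1 against -0.76 to -0.45. In the other 6 cases the gap was smaller than in these 4, and no spot was dim or flagged or the value was a median. Vps16 at p25 was 0.184 on r1 against -0.10 to -0.06, Sec24d at p14 was 0.002 on r1 against 0.48 to 0.53, and Tmed2 at p25 was 0.626 on d1 against 0.22 to 0.27. The ER export median was 0.212 on r1 of p2 against 0.01 to 0.02, and 0.106 on r2 of p5 against -0.03 to -0.01, and the endosome median was 0.143 on r1 of p23 against 0.08 to 0.09.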

How the results depend on the processing

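The number of member genes called moved by more than 1.5 times under many alternatives, since the counts were 0 to 2, and the causes were not tested. The counts as reported were 0 up to p18, 1 at p23, 1 at p25, 2 at p28 and 2 for the slope. With normexp background they were 1 at p5, 2 at p7, 1 at p18, 2 at p23, 0 at p28 and 7 for the slope. With global loess they were 1 at p28 and 1 for the slope (Trappc1 in both), and the 1 at p25 was Trappc1 in place of Ap3s1. Without scaling they were 1 at p7, 0 at p23, 1 at p28 and 0 for the slope, and with scaling within each passage 0 at p23, 0 at p25, 1 at p28 and 0 for the slope. Under both the member called at p28 was Sec24d, in place of Trappc1 and Vps26a. With dim and flagged spots left out they were 2 at p7, 5 at p28, 3 at p25, 1 each at p5, p10 and p18, and 4 for the slope. The deposited log2 ratios gave 1 at p5, 2 at p7, 0 at p23 and 0 for the slope, and their 2 at p28 were Sec24d and Tmed2, in place of Trappc1 and Vps26a. Averaged clones gave 1 at p18. With all arrays kept, the member called at p5 was Tmed2 wherever there was 1, and those at p7 were Sec24d alone or with Vps13d. All arrays in 1 fit gave 5 at p28, 4 each at p23 and p25, 2 at p18 and 1 each at p5, p7 and p14, and dye as a term 8 at p28, 3 each at p23 and p25 and 1 each at p10 and p18. The array series as a block gave 1 at p18, 0 at p23 and 0 at p25, and p7 of the same series as baseline 1 at p14, 0 at p23 and 0 at p25. The test of late against early passages called 0 members under every alternative run.

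The deviations of same-numbered arrays were weakly and mostly positively correlated (-0.07 to 0.24), not in every pair above the level set for pairing, and no source says that the numbers mark a shared batch, so they were not taken to pair the arrays. With the replicate block 0 members were called at any passage, with limma's adjusted p of 0.022 for Vps16 at p23, 0.018 for Ap3s1 at p25, 0.018 for Trappc1 and 0.011 for Vps26a at p28. On leaving out each array in turn the counts ran from 0 to 0 at p5, p10, p14, p18 and p28, 0 to 2 at p7 (Copz2 and Stx2 without array r1 of p2) and 0 to 1 at p23 and p25, and on leaving out each passage from 0 to 3 for the slope and 0 to 0 for late against early. The difference of Stx7 at p5 changed sign, from -1.95 to 0.152, without array d2 of p5, whose spot was near background, and over all arrays left out in turn it ran from -2.75 to 0.152. All 4 Stx7 spots of p5 were dim or flagged, so neither value is sound.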
